A study of Mus musculus with 8 samples.

Results

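Expression of 9 megakaryocyte and platelet genes, Itga2b, Vwf, Pf4, Gp1bb, Itgb3, Selp, Ppbp, Thbs1 and Cd9, was described in sorted stem and progenitor cells of Jmjd6 KO and wild type mice. The genes were picked by name as a set that platelet-biased stem cells carry, and all 9 were found among the 26146 gene symbols of the count table. Bulk polyA RNA was sequenced from Lin-Sca1+Kit+ (LSK) cells, which comprise stem cells and multipotent progenitors of the blood. A floxed Jmjd6 had been deleted in the blood lineages of 4 mice by a Cre restricted to them (Jmjd6 KO), while 4 others were wild type, and each mouse gave 1 library (n = 4 per group). Neither the Cre line nor the age or sex of the mice is given in the labels, and the same protocol text stands beside both genotypes, so whether the wild type mice carried Cre or a floxed allele is unknown. The enzyme made by Jmjd6 belongs to the JmjC oxygenases and adds hydroxyl groups to lysines of proteins, splicing factors among them.

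Platelets are shed by megakaryocytes, large polyploid cells that arise from stem cells in the bone marrow. Part of the stem cell pool already carries transcripts of the megakaryocyte lineage, and von Willebrand factor marks such platelet-biased stem cells in the mouse. On the platelet itself, a surface layer of adhesion receptors catches von Willebrand factor and fibrinogen, and alpha granules store the adhesive proteins and chemokines that are released on activation.

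The targeted gene separated the genotypes, although its RNA was still present in every KO library, with 273 to 403 counts against 475 to 1010 in wild type. Jmjd6 stood at 27.5 to 30.7 CPM in the KO libraries and 52.5 to 63.7 CPM in wild type (CPM, counts scaled to TMM-adjusted library size; log2 fold change -1.03, adjusted p = 0.0381 by edgeR's quasi-likelihood test). Total counts ran from 9964528 to 13516922 in KO libraries and from 9344779 to 15079960 in wild type. KO replicate 3 and wild type replicate 4 held 0 counts of 4 Y-linked genes, against 3660 to 4814 in the other libraries. Xist stood at 893 CPM in KO replicate 3 and at 1551 CPM in wild type replicate 4. In the other libraries Xist had 0.206 to 4.93 CPM in KO and 1.86 to 2.81 CPM in wild type. Wild type replicate 1 had the highest summed levels of erythroid and granulocyte markers, at 1549 and 5229 CPM, where the other 7 libraries had 887 to 988 CPM and 983 to 2380 CPM. The stem cell gate markers Ly6a and Kit were present in every library, at 105 to 227 and 416 to 508 CPM in KO and at 86.1 to 208 and 446 to 500.5 CPM in wild type. Of the 10 gate and stem cell markers edgeR called 0, against 0.0595% of all tested genes. Among these markers 3 had an unadjusted p under 0.05 and 3 did not overlap between genotypes, against 6.06% and 4.19% of all tested genes. Hlf, a stem cell transcription factor, averaged 145 ± 19.3 CPM in KO and 227 ± 44.3 CPM in wild type (log2 fold change -0.65, adjusted p = 0.489 by edgeR). Cd48, a marker of progenitors beyond the stem cell, averaged 254 ± 24.0 CPM in KO and 140.2 ± 77.9 CPM in wild type (0.86, adjusted p = 0.811 by edgeR), with 35.2 CPM in wild type replicate 2. Slamf1, a stem cell surface marker, averaged 10.8 ± 1.20 CPM in KO and 5.71 ± 2.27 CPM in wild type (0.93, adjusted p = 0.670 by edgeR). These were the 3 without overlap, Hlf lower in KO and Cd48 and Slamf1 higher. The part of these markers in the members' values was not tested. In bulk cells, fewer cells of a type and less RNA per cell cannot be told apart.

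None of the 9 genes passed the test for a difference between KO and wild type. By edgeR 0 of 9 had an adjusted p under 0.05, and DESeq2, limma voom and edgeR with a replicate block gave 0 of 9 too. Of all 13439 tested genes, 0.0595% passed by edgeR, 0.491% by DESeq2, 0.231% by limma voom and 0.0223% with the block. At an unadjusted p under 0.05 there were 3 of 9, Selp and Cd9 with more RNA in KO and Ppbp with less, against 6.06% of all tested genes. The KO and wild type libraries did not overlap in 1 of the 9, Ppbp, against 4.19% of all tested genes. Fitted log2 fold changes were above 0 for 3 genes and below 0 for 6, with a median of -0.32, where the median of all tested genes was -0.0024. The plot of counts by library shows that spread within a genotype was wide for most of the set.

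**Figure D1:**
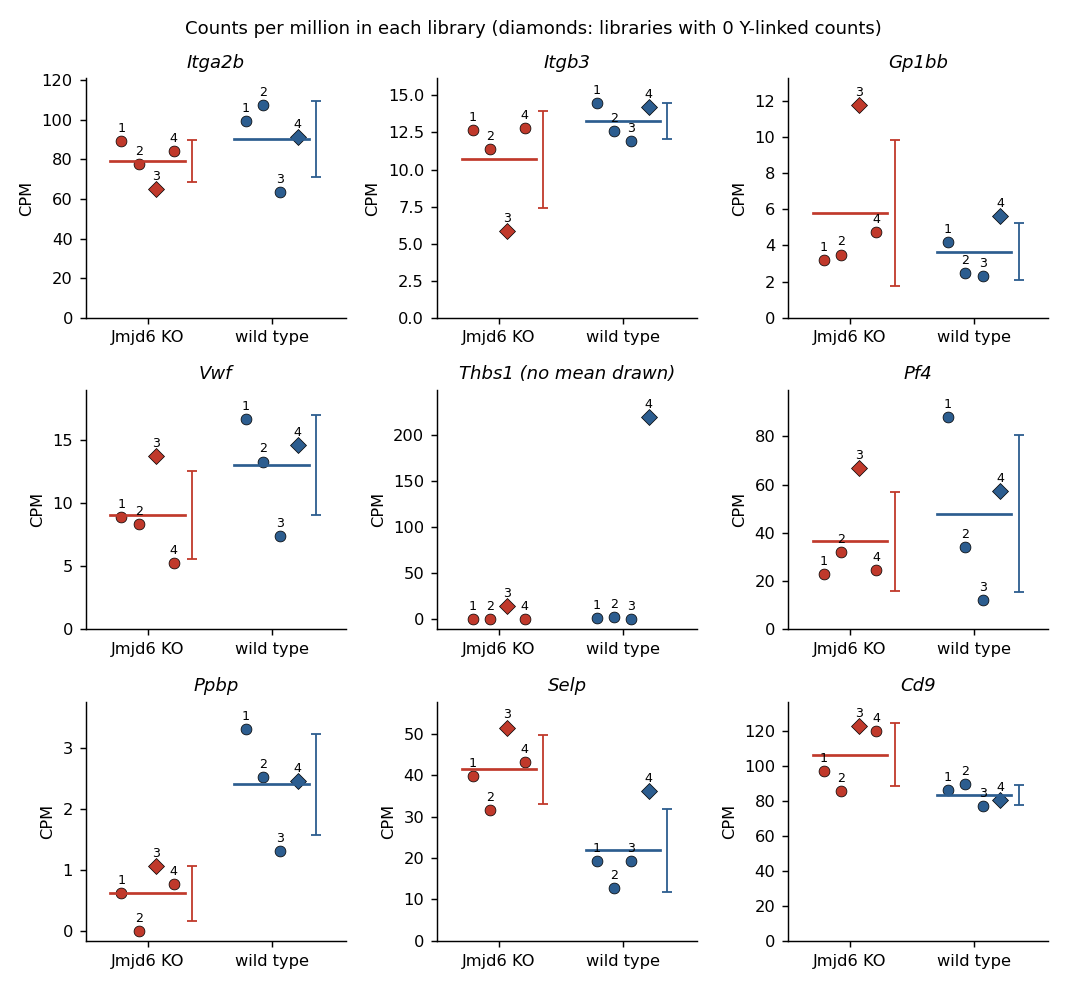
CPM (counts scaled to library size, linear axes) of the 9 genes in each library, Jmjd6 KO left and wild type right; digits give the replicate, diamonds mark the libraries with 0 Y-linked counts, and lines and bars give the mean and SD (n = 4), left out for Thbs1. Ppbp alone shows no overlap, with 0 to 1.07 CPM in KO and 1.31 to 3.31 CPM in wild type, while 1 wild type library holds 219 CPM of Thbs1.

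Levels were compared between genes per kilobase of merged exon, since the genes differ in exon length (721 bases for Pf4, 16064 for Vwf). Merged exons join those of all annotated transcripts of a gene. They can exceed the length of any single transcript, which lowers the level per kilobase, so the order below holds for this measure only. Pf4 and Cd9 stood highest, at 50.7 ± 28.5 and 52.1 ± 8.78 CPM per kb in KO and at 66.5 ± 45.1 and 40.8 ± 2.72 CPM per kb in wild type (SD, n = 4), and did not differ from each other beyond their spread. Itga2b came next with 14.5 ± 1.93 CPM per kb in KO and 16.6 ± 3.52 CPM per kb in wild type, and Selp followed with 9.39 ± 1.88 CPM per kb in KO and 4.95 ± 2.27 CPM per kb in wild type. In KO, Gp1bb averaged 2.77 ± 1.93, Itgb3 1.81 ± 0.554 and Ppbp 0.567 ± 0.416 CPM per kb. In wild type these 3 genes lay within their spread of one another, with means from 1.75 to 2.25 CPM per kb. Vwf had the lowest mean, at 0.564 ± 0.218 CPM per kb in KO, where Ppbp was level with it, and 0.810 ± 0.247 CPM per kb in wild type. Its level exceeded 9.30% of tested genes, while that of Pf4 exceeded 92.0%. Thbs1 has no stable place in the order, with a wild type mean of 9.18 CPM per kb that rests on 1 library, and it lay below Vwf in 3 of 4 KO and 3 of 4 wild type libraries.

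**Figure D2:**
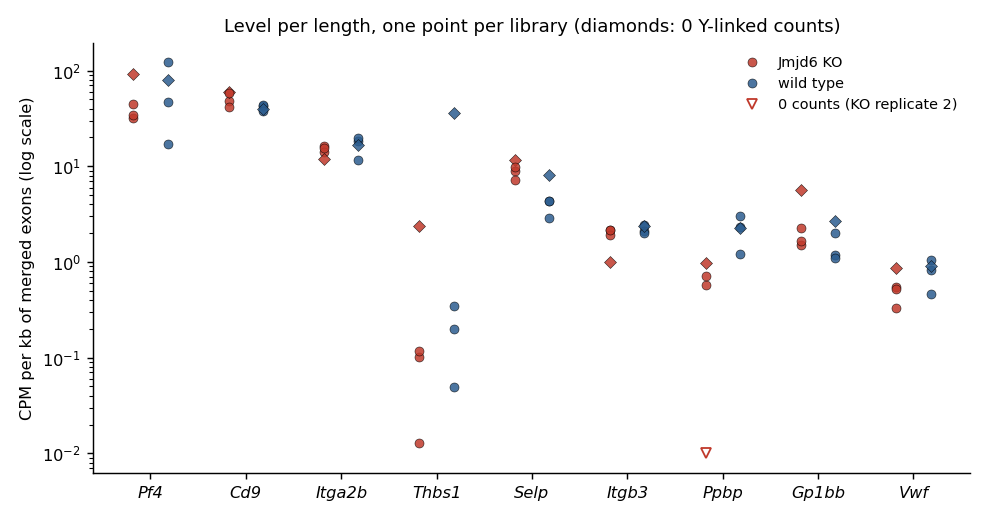
CPM per kb of merged exons (log axis), 1 point per library, Jmjd6 KO left and wild type right of each gene, ordered by the wild type mean; the open triangle marks KO replicate 2, which had 0 counts of Ppbp. Pf4 and Cd9 lie at the top; by mean Vwf is lowest, at 0.564 CPM per kb in KO, beside Ppbp at 0.567, and at 0.810 CPM per kb in wild type, while Thbs1 lies below it in 6 of the 8 libraries.

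The integrin subunits come first among the surface receptors. Itga2b encodes CD41, the alpha subunit, and Itgb3 the beta subunit of the fibrinogen receptor that links platelets to one another. Itga2b (chromosome 11, 102453297 to 102470122, minus strand, mm10) had 89.4, 77.7, 65.1 and 84.4 CPM in KO replicates 1 to 4 and 99.4, 107.7, 63.5 and 91.4 CPM in wild type replicates 1 to 4. All KO values lay within the wild type range, and the log2 fold change was -0.19 (95% interval -0.59 to 0.21, adjusted p = 0.862 by edgeR). Itgb3 (chromosome 11, 104608000 to 104670476, plus strand) had 12.7, 11.4, 5.87 and 12.8 CPM in KO and 14.5, 12.6, 11.95 and 14.2 CPM in wild type. KO replicate 3 was the lowest library of both subunits among the KO samples, and without it the Itgb3 log2 fold change of -0.32 (95% interval -0.89 to 0.26, adjusted p = 0.850 by edgeR) was -0.11. Per kilobase Itga2b exceeded its partner in every library, with lowest values of 11.9 CPM per kb in KO and 11.6 CPM per kb in wild type against highest Itgb3 values of 2.17 and 2.45 CPM per kb.

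Gp1bb encodes the beta chain of glycoprotein Ib, the receptor complex that binds von Willebrand factor. It lies on chromosome 16 from 18620317 to 18622403 on the minus strand. Its level was 3.17, 3.50, 11.7 and 4.73 CPM in KO and 4.20, 2.46, 2.31 and 5.61 CPM in wild type, with KO replicate 3 above all others. The log2 fold change was 0.67 (95% interval -0.37 to 1.70, adjusted p = 0.833 by edgeR), and 0.06 without KO replicate 3. In the annotation Gp1bb shares 1902 exon bases with Sept5 on the same strand, which held 0 to 8 counts per KO library and 1 to 9 per wild type library, so the division of reads between them depended on the authors' counting. Among other chains of the complex, Gp5 had a log2 fold change of 0.72 (unadjusted p = 0.0436, adjusted p = 0.811 by edgeR). Gp1ba and Gp9 gave -0.09 (SE 0.39) and -0.23 (SE 0.27), both nearer to 0 than their SE.

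Vwf, the gene of von Willebrand factor, lies on chromosome 6 from 125546774 to 125686679 on the plus strand, and Cd9 is its neighbour on the side of lower coordinates, 51982 bases away on the opposite strand. On the other side Ano2, 3739 bases away, had at most 4 counts in a KO library and 1 in a wild type library. Vwf had 8.89, 8.33, 13.7 and 5.27 CPM in KO and 16.7, 13.3, 7.43 and 14.6 CPM in wild type. The genotypes overlapped, with wild type replicate 3 below 3 of the KO libraries and KO replicate 3 above 2 of the wild type ones. The log2 fold change was -0.52 (95% interval -1.24 to 0.19, adjusted p = 0.832 by edgeR). With single libraries left out it ran from -0.80 to -0.33. The lowest came without KO replicate 3 (unadjusted p = 0.0244, adjusted p = 0.641 by edgeR) and the highest without KO replicate 4 (unadjusted p = 0.321, adjusted p = 0.953 by edgeR). Vwf and Selp are also transcribed in endothelial cells, whose marker list summed to 619 to 896 CPM in KO and 630 to 821 CPM in wild type over 10 of 10 genes with counts. Cdh5, the endothelial cadherin and most defining of them, had at most 3 counts in a KO library and 7 in a wild type library. Kdr had at most 15 and 12. Plvap averaged 3.54 CPM in KO and 3.18 CPM in wild type, and Emcn 24.4 CPM in KO and 31.9 CPM in wild type. Some of the listed genes, such as Tie1, Eng and Egfl7, are expressed by stem cells too. The part of endothelial RNA in the Vwf and Selp values was not tested.

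Thbs1 encodes thrombospondin 1, an adhesive alpha granule protein that other cells also secrete (chromosome 2, 118111876 to 118127133, plus strand). The libraries held 0.616, 0.720, 14.3 and 0.0775 CPM in KO and 1.21, 2.13, 0.301 and 219 CPM in wild type. Outside wild type replicate 4, with 3479 counts, and KO replicate 3, with 188, no library had more than 32 counts. The fitted log2 fold change of -3.80 (95% interval -7.62 to 0.03, adjusted p = 0.811 by edgeR) therefore follows 1 wild type library, and without it the value was 1.66 (SE 1.29, adjusted p = 0.864). Macrophage markers, 10 of 10 with counts, had summed levels of 123 to 289 CPM in KO and 138 to 283 CPM in wild type. Their highest KO and wild type libraries were those same ones, at 289 CPM in KO replicate 3 and 283 CPM in wild type replicate 4. KO replicate 2, with 0.720 CPM of Thbs1, had a sum of 267 CPM. The part of macrophage RNA in the Thbs1 values was not tested.

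Pf4 and Ppbp are neighbouring chemokine genes whose proteins, platelet factor 4 and pro-platelet basic protein, are among the main contents of alpha granules. Ppbp (chromosome 5, 90768518 to 90770063) ends 2371 bases before Pf4 (90772435 to 90773383), and both are read from the plus strand. Ppbp was the member whose genotypes separated, with 7, 0, 14 and 10 counts in KO and 30, 38, 13 and 39 counts in wild type. These are 0.616, 0, 1.07 and 0.775 CPM in KO and 3.31, 2.53, 1.31 and 2.46 CPM in wild type, so the highest KO library lay just under the lowest wild type library. Summed over libraries, Ppbp in KO was 0.274 of wild type (exact 95% interval 0.178 to 0.409, counting error only). The log2 fold change was -1.91 (95% interval -3.33 to -0.49, unadjusted p = 0.0127), which did not pass over all genes (adjusted p = 0.746 by edgeR, against 0.305 from DESeq2 and 0.127 from limma voom, whose log2 fold change was -3.47). Its exact permutation p of 0.0286 is the smallest that 4 against 4 libraries can give, and 2.11% of all tested genes had all KO libraries below all wild type ones.

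Pf4 did not separate in this way. Its level was 22.8, 32.1, 66.8 and 24.6 CPM in KO and 88.1, 34.0, 12.3 and 57.5 CPM in wild type, so the wild type libraries alone spanned the whole KO range. The log2 fold change was -0.39 (95% interval -1.49 to 0.71, adjusted p = 0.892 by edgeR), and 0.09 without wild type replicate 1, the library with the most erythroid and granulocyte RNA. The part of that RNA in the Pf4 value was not tested. Further chemokine genes of the same cluster were nearly silent, Cxcl5 with 15 counts in KO replicate 3, 1 in wild type replicate 4 and 0 in the remaining libraries, and Cxcl3 with at most 1 count in KO and 6 in wild type.

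RefSeq promoters (GRCm38.p6, from 250 bases before to 50 after the transcript start) were found for 6 of the 9 genes. They were searched on both strands for a motif of GATA factors with the letters AGATAA, one of ETS factors with the letters AGGAAG and one of RUNX factors with the letters TGTGGT, since these factor families drive megakaryocyte genes. AGGAAG occurred in 5 of the 6 and AGATAA in 1, where 35.4% and 11.2% of all 32851 promoters hold them. TGTGGT occurred in 0 of the 6 and in 16.8% of all promoters. Those of Pf4 and Ppbp are shown because the neighbours stood far apart in level, and that of Selp because it had the largest value above 0 among the members. Capitals mark the GATA and ETS letters, on either strand, so the ETS letters also appear as their reverse complement.
Pf4 (chr5:90772185-90772484, plus strand): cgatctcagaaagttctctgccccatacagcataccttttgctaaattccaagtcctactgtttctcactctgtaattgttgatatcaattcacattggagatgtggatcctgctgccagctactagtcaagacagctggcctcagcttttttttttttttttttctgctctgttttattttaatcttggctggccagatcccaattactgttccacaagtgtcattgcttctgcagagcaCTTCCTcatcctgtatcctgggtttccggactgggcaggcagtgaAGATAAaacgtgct
Ppbp (chr5:90768268-90768567, plus strand): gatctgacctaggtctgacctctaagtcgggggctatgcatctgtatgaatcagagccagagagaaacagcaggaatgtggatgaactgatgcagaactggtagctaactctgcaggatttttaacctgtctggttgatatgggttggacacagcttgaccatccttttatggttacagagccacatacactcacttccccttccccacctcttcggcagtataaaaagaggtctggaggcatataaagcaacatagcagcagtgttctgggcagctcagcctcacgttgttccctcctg
Selp (chr1:164115014-164115313, plus strand): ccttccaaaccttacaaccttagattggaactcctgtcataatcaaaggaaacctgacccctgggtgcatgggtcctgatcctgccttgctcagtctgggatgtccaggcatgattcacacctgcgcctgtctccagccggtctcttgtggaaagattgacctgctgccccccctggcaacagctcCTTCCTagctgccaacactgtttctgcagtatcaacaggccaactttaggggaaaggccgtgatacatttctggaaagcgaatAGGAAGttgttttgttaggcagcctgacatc
The Pf4 window holds the ETS letters with their first base at -9 and the GATA letters at 37, counted from the transcript start. Ppbp holds none of the 3 exact strings of letters in this window, and Selp holds the ETS letters at -64 and 20. Looser forms of these motifs were not searched, so sites that differ by a letter are not marked. A match of letters is a description of the sequence and not of binding.

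Selp encodes P-selectin, an alpha granule membrane protein that moves to the platelet surface on activation and binds leukocytes through Selplg. It lies on chromosome 1 from 164115264 to 164150026 on the plus strand. Selp stood at 39.7, 31.5, 51.5 and 43.1 CPM in KO and 19.2, 12.8, 19.2 and 36.2 CPM in wild type. Wild type replicate 4 lay inside the KO range, and the other 3 wild type libraries lay below all KO libraries. The log2 fold change of Selp was 0.92 (95% interval 0.28 to 1.56, unadjusted p = 0.00854, exact permutation p = 0.0571). It did not pass over all genes: the adjusted p was 0.673 by edgeR, while DESeq2 gave 0.211 and limma voom 0.219. Among the 6 libraries with Y-linked counts it was 1.16, at an adjusted p of 0.202 by edgeR. The annotation places Gm16548, a lincRNA gene on the opposite strand, over the end of Selp, sharing 438 exon bases, and an antisense gene, Gm16587, shares 186, and whether counting used strand is unknown. Gm16548 averaged 8.88 CPM in KO and 4.90 CPM in wild type, a log2 fold change of 0.86 (adjusted p = 0.812 by edgeR).

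Genes beside Selp were read as well. F5, the coagulation factor V gene that starts 1811 bases after Selp, had 5.10, 7.51, 3.81 and 2.25 CPM in KO and 4.64, 1.46, 3.21 and 2.14 CPM in wild type, with a log2 fold change of 0.72 (adjusted p = 0.832 by edgeR). Of the 10 tested genes reported here that reach within 250 kb of Selp, a window chosen after values were seen, 7 lay above 0 and 3 below. By edgeR 0 of these 10 were called and 0 had an unadjusted p under 0.05, against 0.0595% and 6.06% of all tested genes. Selplg, which encodes the ligand of P-selectin on leukocytes, gave 0.15 (adjusted p = 0.883 by edgeR).

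**Figure D3:**
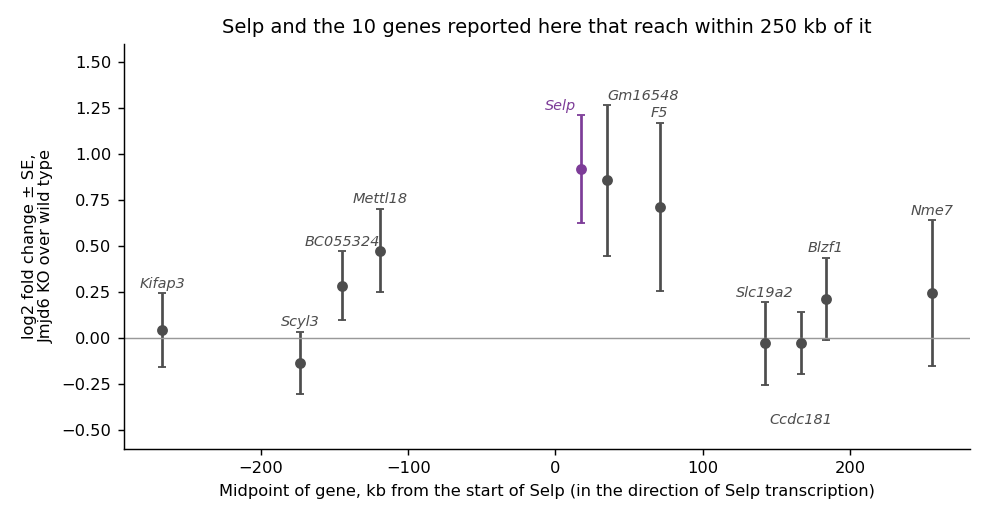
Log2 fold change (Jmjd6 KO over wild type, points, with SE as bars) of Selp and the 10 tested genes reported here that reach within 250 kb of it, by distance of each gene's midpoint from the start of Selp in kb. Selp, Gm16548 and F5 lie between 0.72 and 0.92; none passed edgeR's test over all genes.

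Cd9 encodes a tetraspanin of the cell surface that is abundant on platelets and on stem cells (chromosome 6, 125460266 to 125494791, minus strand). Cd9 had 97.2, 85.9, 123 and 119.9 CPM in KO and 86.1, 89.7, 77.2 and 80.6 CPM in wild type, and KO replicate 2 alone lay inside the wild type range. The difference was small, a log2 fold change of 0.35 (95% interval 0.02 to 0.69, unadjusted p = 0.0415, adjusted p = 0.811 by edgeR). The tetraspanins among the listed partners, Cd81, Cd63, Cd82, Cd151, Cd37 and Cd53, lay nearer to 0, between -0.24 and 0.23. By edgeR 0 of these 6 were called or had an unadjusted p under 0.05, against 0.0595% and 6.06% of all tested genes. Tspan33, a tetraspanin listed as an erythroid marker, lay further from 0, at -1.27 (unadjusted p = 0.00305, adjusted p = 0.501 by edgeR). It had 1.86 to 3.28 CPM in KO and 4.92 to 8.94 CPM in wild type, without overlap.

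**Figure D4:**
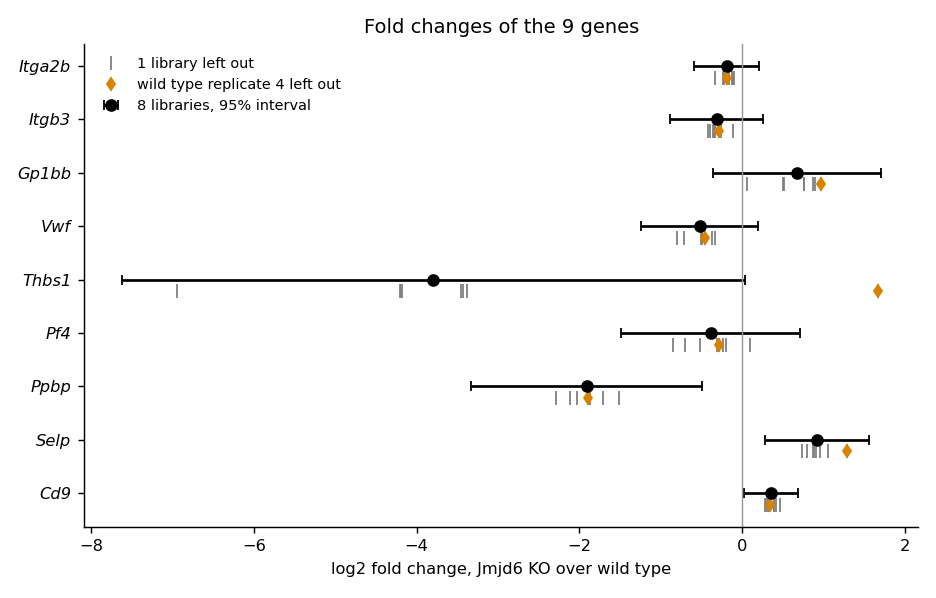
Log2 fold change (Jmjd6 KO over wild type) of the 9 genes from all 8 libraries with its 95% interval (black), with each library left out in turn (grey ticks) and with wild type replicate 4 left out (diamonds). Thbs1 stands at -3.80 with all libraries and at 1.66 without that one, and the intervals of Selp, Cd9 and Ppbp exclude 0 before adjustment.

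The 9 genes did not order the libraries by genotype but shared some of their order within genotypes. KO replicate 3 was the highest KO library for 7 of the 9 and the lowest for both integrin subunits, where it was the highest for 34.0% and the lowest for 36.2% of all tested genes. Wild type replicate 3 was the lowest wild type library for 8 of the 9, against 19.3% of all tested genes, with Selp the exception. The mean log2 CPM of the 9 was 3.42, 3.16, 4.32 and 3.30 in KO and 4.02, 3.72, 3.05 and 4.81 in wild type. Thbs1, at 14.3 CPM in KO replicate 3 and 219 CPM in wild type replicate 4, enters this mean unscaled. Closest to this mean over the 8 libraries were Mlf1, Ero1lb, Gbp10, Htra2 and Fkbp11, with Pearson's r from 0.93 to 0.96 and Spearman's rho from 0.83 to 0.93. These r values are the highest of all tested genes outside the set, share the same 8 libraries and describe them only. All of these genes were highest in KO replicate 3 and wild type replicate 4 within their genotype. The part of Thbs1 in this likeness was not tested.

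Megakaryocyte and platelet markers beyond the 9 genes differed widely in level, and 6 of 10 passed the count filter. Of 10 markers that define megakaryocytes and platelets all had some counts, and their sum was 98.1 to 146 CPM in KO and 88.9 to 159 CPM in wild type, most of it Mmrn1, Rab27b, Gp5 and Gp9. Gp6, the platelet collagen receptor, had 0 counts in every KO library and 3 counts in 1 wild type library. Tubb1, the tubulin of platelet microtubules, had at most 14 counts in a KO library and 9 in a wild type library. Clec1b and Alox12 reached at most 15 and 10 counts in KO and 21 and 22 counts in wild type.

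Related megakaryocyte and platelet genes were read in lists by role, which overlap in part. Among the 105 tested genes of these lists, edgeR called 0, DESeq2 called 1 (P2rx1) and limma voom called 0, and 10 had an unadjusted p under 0.05 by edgeR. Over all tested genes these shares were 0.0595% by edgeR, 0.491% by DESeq2, 0.231% by limma voom and 6.06% at the unadjusted p. Receptors had a median log2 fold change of -0.05 over 20 tested genes, 8 above 0 and 12 below. P2rx1, an ATP-gated channel of platelets, had 26.1, 18.5, 8.24 and 24.0 CPM in KO and 34.2, 52.5, 38.7 and 44.4 CPM in wild type, without overlap (log2 fold change -1.14, SE 0.31). P2rx1 had an adjusted p of 0.501 by edgeR, against 0.0463 from DESeq2 and 0.0903 from limma voom. F2rl3, a thrombin receptor gene, gave a log2 fold change of 0.52 (adjusted p = 0.772 by edgeR). F2r, of the same list, had 76.0 to 88.8 CPM in KO and 66.7 to 72.5 CPM in wild type, without overlap (log2 fold change 0.26, adjusted p = 0.831 by edgeR).

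**Figure D5:**
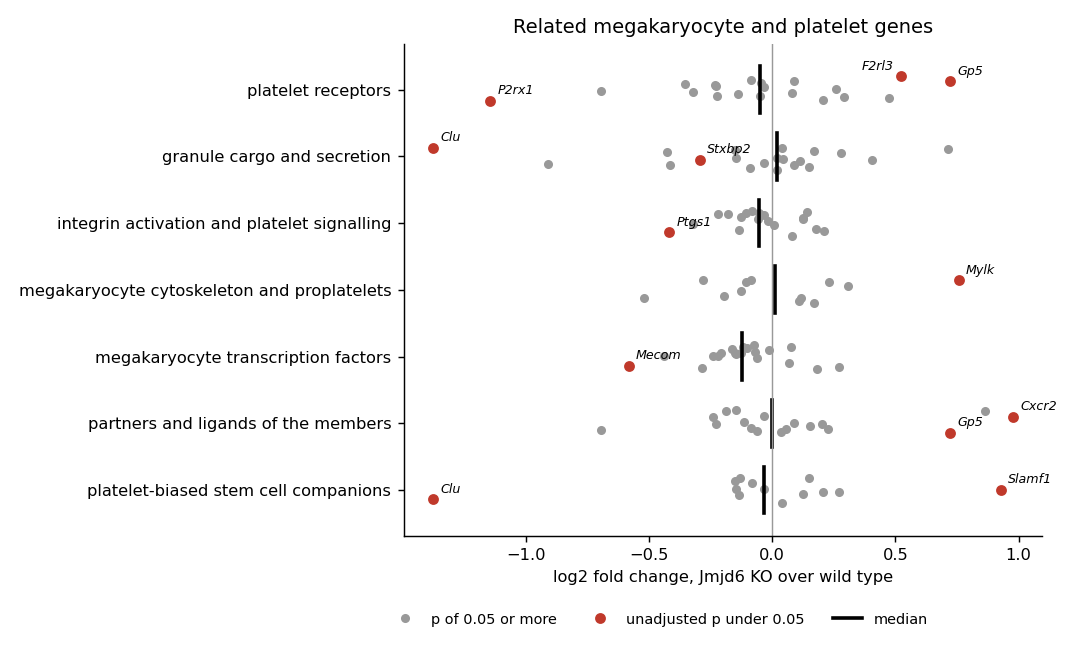
Log2 fold change (Jmjd6 KO over wild type) of every tested gene in 7 lists of related genes, with the median as a black bar; red points have an unadjusted p under 0.05 by edgeR. Medians lie between -0.12 and 0.02, and 0 of these genes passed edgeR's test over all genes, while DESeq2 called P2rx1.

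Granule cargo and secretion genes had a median of 0.02 over 20 tested genes, 11 above 0 and 9 below. Clu, which encodes the granule chaperone clusterin, had 2.11, 1.54, 2.36 and 2.01 CPM in KO and 3.98, 5.85, 2.11 and 8.89 CPM in wild type (log2 fold change -1.38, with an adjusted p of 0.670 by edgeR). Stxbp2, a partner of the fusion machinery in granule release, had 165 to 183 CPM in KO and 196 to 230.2 CPM in wild type, without overlap (log2 fold change -0.29, adjusted p = 0.792 by edgeR). Nbeal2, needed for alpha granules to form, gave -0.41 at an adjusted p of 0.832 by edgeR. Genes of integrin activation and platelet signalling had a median of -0.05 over 19, 7 above 0 and 12 below. Ptgs1, the cyclooxygenase of platelets, had 48.8 to 67.6 CPM in KO and 71.0 to 95.1 CPM in wild type, without overlap (log2 fold change -0.42, adjusted p = 0.772 by edgeR). Rap1b, Rasgrp2 and Fermt3, which act in turning the integrin on, gave 0.21, 0.18 and -0.13.

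Cytoskeletal genes of proplatelet formation had a median of 0.01 over 12 tested genes, 6 above 0 and 6 below. Mylk, the myosin light chain kinase gene, had 32.6, 31.8, 21.4 and 35.6 CPM in KO and 14.8, 19.2, 20.7 and 17.0 CPM in wild type, without overlap (log2 fold change 0.76, SE 0.21). For Mylk edgeR gave an adjusted p of 0.501, DESeq2 0.0937 and limma voom 0.0765. Actin regulators in the list included Pfn1, at 0.31, and Actn1, at -0.52, whose groups did not overlap either (adjusted p = 0.817 and 0.832 by edgeR). Transcription factors of the lineage had a median of -0.12 over 20, 4 above 0 and 16 below. Gata1, Nfe2 and Runx1 were among the 4 above 0, at 0.27 (SE 0.48), 0.18 and 0.07, and Fli1 gave -0.16. The smallest p belonged to Mecom, a stem cell regulator, with 43.5, 42.0, 40.0 and 23.9 CPM in KO and 56.4, 32.7, 59.4 and 75.0 CPM in wild type (log2 fold change -0.58, adjusted p = 0.811 by edgeR). Mafg, Meis1 and Mef2c had the next smallest p and gave -0.44, -0.24 and -0.22 (adjusted p = 0.817, 0.833 and 0.848 by edgeR).

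Partners and ligands of the 9 genes had a median log2 fold change of 0.0012 over 18 tested genes, 9 above 0 and 9 below. Beside Gp5, Cxcr2, a receptor for chemokines cut from the Ppbp protein, had an unadjusted p under 0.05, with 3.80 to 6.97 CPM in KO and 1.70 to 4.31 CPM in wild type (log2 fold change 0.98, adjusted p = 0.772 by edgeR). Genes reported with platelet-biased stem cells had a median of -0.03 over 13, 6 above 0 and 7 below. Slamf1, which encodes the stem cell surface marker CD150, had 10.6, 9.25, 11.9 and 11.6 CPM in KO and 3.98, 4.66, 9.04 and 5.17 CPM in wild type. These libraries did not overlap, and the log2 fold change was 0.93 with an SE of 0.29 (adjusted p = 0.670 by edgeR, against 0.206 from DESeq2 and 0.397 from limma voom).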

How the data were processed

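Counts of polyA RNA reads per gene were deposited by the authors for 26146 gene symbols in 8 libraries, as whole numbers without normalization (every row is named). HISAT2 and the mm10 genome are listed per the submitters' processing notes. How reads were assigned to genes, with or without regard to strand, is a step not given in the sources used here. Columns were matched to samples by genotype and number. Total counts ranged from 9344779 to 15079960 per library, and replicates differed by more than sampling noise (chi-square per degree of freedom of 6.56 or more).

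KO was compared with wild type over all 8 libraries with edgeR 4.0.16 (R 4.3.3; quasi-likelihood fit), with TMM scaling, filterByExpr at a count minimum of 10 and a total of 15 (13439 genes kept) and Benjamini-Hochberg adjustment over all of them, called under 0.05. Intervals of fold changes are 95% intervals from the SE of the fit. Log2 CPM used a prior count of 2. Permutation tests were exact and two-sided. Scripts were tested on simulated counts. Alternatives were DESeq2 1.42.0 (size factors, Wald test), limma 3.58.1 voom with sample weights, library size only, other filters, a replicate block, leaving out libraries and a threshold of 0.1. One more was chosen after seeing the data: removing a loess trend (span 0.3) on exon length and level.

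Named genes were taken from the 9 members, Jmjd6, the 4 genes of each related list with the smallest p and any called gene, the 5 genes most like the members' mean, and annotated neighbours. Not every gene of these groups is named, Dnm2, Thbs2, Cd36 and Fyb being left out. Further list genes were named for their roles. Members and lists were chosen with earlier results of these data known. Some genes of the lists and of a member's surroundings are not reported here and were left out of list and window counts, not of the fit. Positions and exon lengths came from GENCODE M21 on GRCm38 (25358 of 26146 symbols matched), and promoters from RefSeq GRCm38.p6; mm10 names the same build.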

Additional observations from a re-analysis of the deposited data

Results flagged for a closer look

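Each member was checked in each genotype for a library far from the other 3. Of the 18 groups checked, 2 held such a library, both of Thbs1. The limit used flags about 1 in 20 groups by chance when values follow a normal distribution. It was applied to CPM on a linear scale, and the share flagged among all tested genes was not computed. How often chance alone gives such a group in these data is therefore unknown. In KO, replicate 3 held 14.3 CPM and the next library 0.720 CPM. In wild type, replicate 4 held 219 CPM and the next library 2.13 CPM. Both are the libraries with 0 Y-linked counts, and 14.4% of all tested genes were highest in both of them within their genotype, as were 3 of the 9 members, Gp1bb, Selp and Thbs1.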

How the results depend on the processing

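The count of 8 called genes was 3 with a replicate block, 66 by DESeq2, 31 by limma voom, 4 with only the 6 libraries with Y-linked counts, and between 2 and 8 with single libraries left out. No member was called under any alternative run, a threshold of 0.1 included; Thbs1 did not pass the filter among the 6 libraries, and DESeq2 gave it no adjusted p. The log2 fold change of Itga2b turned to 0.0192 by limma voom, which also brought Pf4 to -0.02, Gp1bb to 0.21, Itgb3 to -0.15, Thbs1 to -1.87 and Cd9 to 0.21. With single libraries left out, Pf4 ran from -0.86 to 0.0943 and Thbs1 from -6.94 to 1.66, changing sign without wild type replicate 1 and 4. Selp ran from 0.73 to 1.28, Ppbp from -2.29 to -1.51 (-3.47 by limma voom with all libraries) and Cd9 from 0.28 to 0.46. Removing a trend with exon length and level, chosen after seeing the data, left every sign as it was and took Pf4 to -0.62 and Cd9 to 0.21. Same-numbered libraries did not deviate together (correlation of deviations across genes from -0.19 to 0.03). With 4 libraries per group this cannot tell whether same-numbered mice were paired, and the labels give only the number. Ppbp and Gp1bb rest on few counts, 31 and 285 in KO and 120 and 187 in wild type, which limits what could be detected.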

Other observations

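Near Cd9 on chromosome 6, Vamp1, which encodes a vesicle fusion protein of the synaptobrevin family, averaged 32.5 CPM in KO and 59.7 CPM in wild type, and its libraries did not overlap (log2 fold change -0.88, SE 0.25, unadjusted p = 0.00409, adjusted p = 0.518 by edgeR). Vamp1 was chosen after its values were seen, among 6 tested genes that reach within 250 kb of Cd9.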
